A study of Mus musculus with 16 samples.

Results

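The Hox cluster genes were followed in chromatin of 4 sorted populations of mouse medullary thymic epithelial cells (mTEC). Their members were the peaks of the deposited merged peak table whose gene name is Hoxa, Hoxb, Hoxc or Hoxd followed by a paralog number. There were 48 such peaks of 29472 in the table, and they carried the names of 32 Hox genes of 15739 annotated genes.

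The mark measured was dimethylation of lysine 4 of histone H3 (H3K4me2), which lies at promoters and enhancers, by iChIP, a high-throughput form of chromatin immunoprecipitation. The cells came from thymi of C57BL/6 mice and were sorted as CD45- and Epcam+, that is, epithelial and not of blood origin; their age is not stated in the labels. mTEC-I were sorted further as MHCIIlow Itgb4+, mTEC-II as MHCIIhigh, mTEC-III as Ly6D+ and mTEC-IV as MHCIIlow Itgb4- L1cam+, with 2 H3K4me2 libraries in each population. The populations are gates on surface proteins, so each may hold a mixture of cell states, and the labels do not say how many mice gave each library.

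Hox genes encode homeodomain transcription factors that give cells their position along the body axis. In mammals they sit in 4 clusters, and within each cluster the genes with low paralog numbers are used in anterior tissues and those with high numbers in posterior tissues. The thymus arises from the pharyngeal endoderm, an anterior tissue, and Hoxa3 is needed for its formation. Silent Hox genes are held by Polycomb complexes, while active stretches carry methylation of lysine 4 of histone H3.

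Values are tags per 10000000 sequenced tags, as the authors deposited them, and peaks named for the same gene were summed to give its level. Library totals ran from 1702104 tags in mTEC-I replicate 2 to 15412133 in mTEC-II replicate 1, and from 31.9% to 35.4% of the tags lay in merged peaks. Each tag was worth 5.88 in mTEC-I replicate 2 and at most 1.55 in the other 7 libraries, so the limit that a count of 0 allows (3 tags) was 17.6 there and at most 4.64 elsewhere; these limits cover counting error only. In mTEC-I replicate 2, 7 of the 32 Hox genes held fewer than 3 tags, against 1 (Hoxd10) in mTEC-I replicate 1 and 0 in each of the other 6 libraries. The mTEC-II libraries differed from each other by no more than counting error (chi-square per peak 0.999, p = 0.537), so they may be 1 library sequenced again; both are printed, and counts of Hox genes that move by over 1.5 times when they are taken as 1 sample are named. Nothing in the labels says that replicates came from separate mice, so p-values measure the spread between these libraries, which may be technical.

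All 10 thymic epithelial markers examined had a merged peak, which does not place the mark in every population. Their summed level was 8213 to 8736 (mTEC-I), 7741 to 7797 (mTEC-II), 7210 to 7887 (mTEC-III) and 8450 to 8728 (mTEC-IV). Krt5 held 26.3 to 33.0 in mTEC-IV and 85.5 to 413 elsewhere, and Foxn1 held 175 to 185 and 413 to 609. Trp63 was also lowest in mTEC-IV, but Krt8 and Krt18 were highest there. Of 8 thymocyte markers only Ptprc, the gene of CD45, had a peak, at 265 to 269 tags per 10000000 in mTEC-IV and 30.0 to 48.9 in the other populations; Cd3e, Cd3g, Cd4, Cd8a, Lck, Ptcra and Rag1 had none. Of 8 fibroblast markers 5 had a peak (not Col1a2, Col3a1 and Twist2), and their summed level was 736 to 831 (mTEC-I), 494 to 557 (mTEC-II), 314 to 376 (mTEC-III) and 630 to 663 (mTEC-IV). Of 6 endothelial markers 5 had a peak (not Tie1), summing to 448 to 470, 397 to 411, 293 to 363 and 861 to 877 in the same order. Thus the fibroblast sum was highest in mTEC-I, the population in which most Hox levels were lowest, and the endothelial sum and Ptprc were highest in mTEC-IV. Pdgfra, Col1a1, Dcn and Prrx1 were also highest in mTEC-I by mean, but Pdgfrb held 126 and 127 in mTEC-IV and 14.7 and 23.5 in mTEC-I. Cdh5, Tek and Emcn were highest in mTEC-IV, but Kdr in mTEC-I and Pecam1 in mTEC-III. The part of these markers in the Hox results was not tested. In such bulk samples, fewer cells bearing a mark and less of the mark per cell cannot be told apart.

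The upstream sequences of 4 Hox genes are shown because they stand for the patterns found: Hoxa2, highest in mTEC-I, Hoxa3, highest in mTEC-IV, Hoxb4, highest in mTEC-III, and Hoxd10, among the lowest in mTEC-I. Each is the 250 bases before the RefSeq start on the gene's own strand, from assembly GRCm38.p6, whose coordinates are not those of the deposited files (mm9). Capitals mark matches on either strand to TGATNNAT, a site bound by Pbx and Hox proteins together, or to AGGTCA, the core site of retinoic acid receptors; the motifs do not overlap in these windows.
Hoxa2, chr6:52164832-52165081, minus strand: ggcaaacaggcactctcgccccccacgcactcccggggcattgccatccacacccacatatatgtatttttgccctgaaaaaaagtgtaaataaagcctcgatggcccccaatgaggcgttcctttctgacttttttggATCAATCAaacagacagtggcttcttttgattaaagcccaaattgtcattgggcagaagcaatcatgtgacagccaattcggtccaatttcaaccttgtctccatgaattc
Hoxa3, chr6:52213068-52213317, minus strand: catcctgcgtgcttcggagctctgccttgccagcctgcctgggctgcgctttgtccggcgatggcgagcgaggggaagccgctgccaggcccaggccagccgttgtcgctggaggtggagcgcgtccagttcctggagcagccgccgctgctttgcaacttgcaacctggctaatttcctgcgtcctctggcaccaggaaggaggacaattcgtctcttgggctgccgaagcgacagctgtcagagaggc
Hoxb4, chr11:96318017-96318266, plus strand: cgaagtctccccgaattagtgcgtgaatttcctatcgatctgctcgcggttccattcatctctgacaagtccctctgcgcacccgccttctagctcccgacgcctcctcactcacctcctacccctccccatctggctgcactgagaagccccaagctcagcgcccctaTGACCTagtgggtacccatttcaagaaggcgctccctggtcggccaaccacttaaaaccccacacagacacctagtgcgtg
Hoxd10, chr2:74691641-74691890, plus strand: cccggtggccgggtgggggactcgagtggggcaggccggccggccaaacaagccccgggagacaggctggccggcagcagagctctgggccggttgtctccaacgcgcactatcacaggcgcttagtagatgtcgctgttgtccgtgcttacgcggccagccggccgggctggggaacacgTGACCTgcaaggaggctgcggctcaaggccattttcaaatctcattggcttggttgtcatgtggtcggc
Hoxa2 held the single TGATNNAT match of the set, and Hoxb4 and Hoxd10 held 1 AGGTCA match each. Over all 32851 such windows, 7.68% held TGATNNAT and 14.0% held AGGTCA. Entries for Hox genes numbered 24 windows of 22 genes, of which 4 held TGATNNAT and 6 held AGGTCA. The windows differ in CpG: 6 CG pairs in Hoxa2, which is also the median of all windows, and 18, 14 and 20 in Hoxa3, Hoxb4 and Hoxd10, with a median of 12.5 over the Hox windows. A match describes these letters and is not evidence of binding.

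Most Hox genes carried less H3K4me2 in mTEC-I than in any other population. Hox peaks differed among the 4 populations in 41 of 48 cases, against 58.2% of all peaks tested, and Hox genes in 27 of 32 cases, against 54.2% of all genes tested (limma F test over 8 libraries on log2 of the level plus 1, Benjamini-Hochberg adjusted p under 0.05). All 48 peaks and 32 genes had passed the filter on low values. mTEC-I had the lowest mean level in 30 of the 32 genes. Both mTEC-I libraries lay below all 6 others in 25 of 32 Hox genes, where 11.2% of all genes had this order, and in 36 of 48 Hox peaks, where 15.6% of all peaks had it. They lay above all 6 others in 1 Hox gene, Hoxa2, where the share among all genes was 14.7%. The authors' peak list of mTEC-I covered 2 of the 48 Hox peaks, beside 23.4% of all merged peaks. Most members thus entered the merged peaks through the lists of other populations, and the shares over all features are not matched for this. It bears on every comparison with mTEC-I below, and how far it set the order was not tested.

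**Figure D1:**
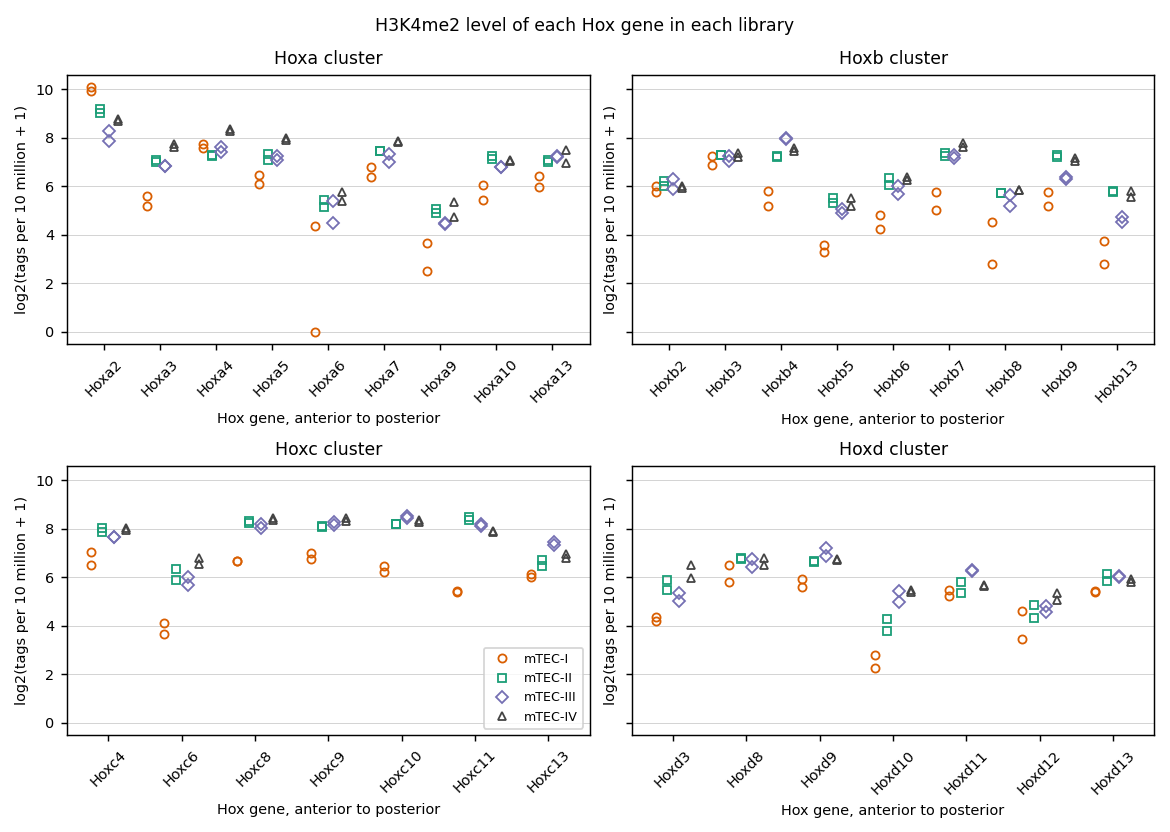
Level of each Hox gene in each library, as log2 of tags per 10000000 plus 1, with genes of each cluster in order from anterior to posterior; each symbol is 1 library and colours and shapes mark the populations. The mTEC-I circles are the lowest points of most genes and the highest at Hoxa2.

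In pair comparisons, 24 Hox genes were higher and 2 lower in mTEC-II than in mTEC-I, where 11.9% and 13.5% of all genes were called higher and lower; with the mTEC-II libraries counted as 1 sample, 20 were higher and 1 was lower. In mTEC-III 26 were higher and 1 lower than in mTEC-I, against 15.0% and 16.4% of all genes. In mTEC-IV 26 were higher and 1 lower, against 20.5% and 15.2%. The median log2 differences of the 32 genes were 1.42, 1.31 and 1.64, beside medians of -0.090, -0.014 and -0.020 for all genes. These 3 comparisons share the mTEC-I libraries. Of the 32 genes, 30 had a lower fitted level in mTEC-I than in mTEC-II, 30 than in mTEC-III and 31 than in mTEC-IV. Since 1 mTEC-I library was shallow, the medians were also taken with it left out, and were then 1.17, 1.13 and 1.56. Over all 48 Hox peaks the summed level was 2841 and 2659 in the libraries of mTEC-I, 4467 and 4403 in those of mTEC-II, 4025 and 4181 in those of mTEC-III, and 4807 and 5006 in those of mTEC-IV. Hoxa2 alone made up much of the mTEC-I sum. Without it the sums were 1749 and 1689 in mTEC-I and between 3793 and 4573 in the other 6 libraries.

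**Figure D2:**
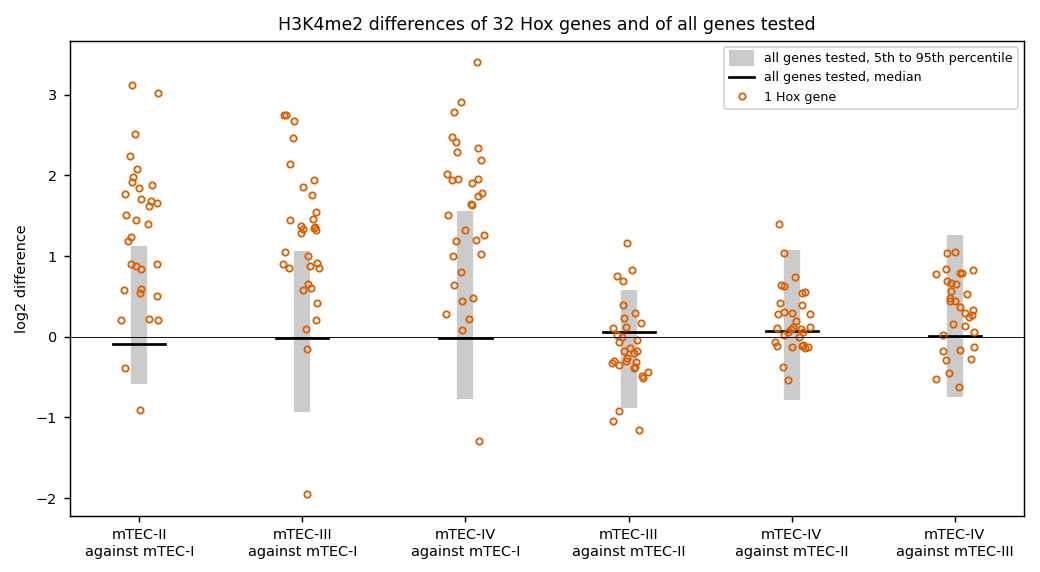
Log2 difference in H3K4me2 for each of the 32 Hox genes (circles, spread sideways at random for sight) in the 6 pair comparisons, with the median (black bar) and the 5th to 95th percentile (grey) of all genes tested. Hox genes lie mostly above 0 in the 3 comparisons against mTEC-I, with medians of 1.42, 1.31 and 1.64, and around 0 in the others.

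In the Hoxa cluster on chromosome 6 all 9 genes with a peak differed among the populations, against 54.2% of all genes. The order of the populations turned over along the cluster. At the anterior end, Hoxa2, a gene known for patterning the hindbrain and the branchial arches, lay under 1 broad peak of 13.7 kb (mm9 chr6:52107439-52121177) centred 522 bases past the start and in exon 1. Its level was 1093 and 969 tags per 10000000 in the libraries of mTEC-I, 514 and 583 in those of mTEC-II, 232 and 305 in those of mTEC-III, and 410 and 433 in those of mTEC-IV. The mTEC-I libraries were the highest and the mTEC-III libraries the lowest, with no overlap of either with the rest. The log2 difference between mTEC-I and mTEC-III was 1.95 (SE 0.11, adjusted p = 2.5e-08, limma). Differences of mTEC-II, mTEC-III and mTEC-IV from mTEC-I were -0.91, -1.95 and -1.29 on the log2 scale.

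Hoxa3, the paralog needed for the thymus, was represented by a peak at the start of the gene as the table annotates it (chr6:52161566-52164725, centre at -79 bases from the start), which lies between the Hoxa6 and Hoxa7 peaks. This peak held 35.6 and 47.0 in the libraries of mTEC-I, 135 and 127 in those of mTEC-II, 114 and 114 in those of mTEC-III, and 214 and 194 in those of mTEC-IV. mTEC-I was lowest and mTEC-IV highest, without overlap, and the log2 difference between them was 2.29 (SE 0.17, adjusted p = 4.5e-08, limma). The body of Hoxa3 nearer to Hoxa2 behaved otherwise. In intron 3 of the same transcript lay 2 peaks that the table names for Hoxaas2, an antisense RNA. The peak at chr6:52121723-52125165 held 275 and 200 in mTEC-I and from 60.7 to 108 in the other 6 libraries. Hoxaas2 as a whole held 624 and 461 in the libraries of mTEC-I, 210 and 224 in those of mTEC-II, 105 and 121 in those of mTEC-III, and 175 and 211 in those of mTEC-IV. It thus had the same order at its ends as Hoxa2, highest in mTEC-I and lowest in mTEC-III, with a log2 difference of 2.24 (SE 0.15, F test adjusted p = 6.5e-08, limma).

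Hoxa4 stood between these patterns. The peak with its name (chr6:52140397-52145601) lies in intron 2 of a Hoxa3 transcript, with its centre at -1297 bases from the Hoxa4 start. It held 211 and 191 in the libraries of mTEC-I, 152 and 154 in those of mTEC-II, 192 and 170 in those of mTEC-III, and 308 and 322 in those of mTEC-IV. mTEC-IV was above and mTEC-II below all other libraries, while mTEC-I and mTEC-III overlapped (log2 difference -0.15, SE 0.12, adjusted p = 0.38, limma). Hoxa5, best known for its part in lung and axial patterning, had the highest mean level per kb of peak in the cluster, 43.5. It held 67.3 and 88.1 in the libraries of mTEC-I, 133 and 157 in those of mTEC-II, 149 and 132 in those of mTEC-III, and 238 and 249 in those of mTEC-IV. From Hoxa5 on, mTEC-I was the lowest population at every gene, and mTEC-IV exceeded it by 1.65 log2 units at Hoxa5 (SE 0.16, adjusted p = 7.6e-07, limma). At Hoxa6, Hoxa7, Hoxa9, Hoxa10 and Hoxa13 both mTEC-I libraries were also below all others. At Hoxa6 mTEC-I replicate 2 held 0 tags, which allows a level of up to 17.6, beside 19.4 in replicate 1 and 21.2 to 52.8 elsewhere.

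**Figure D3:**
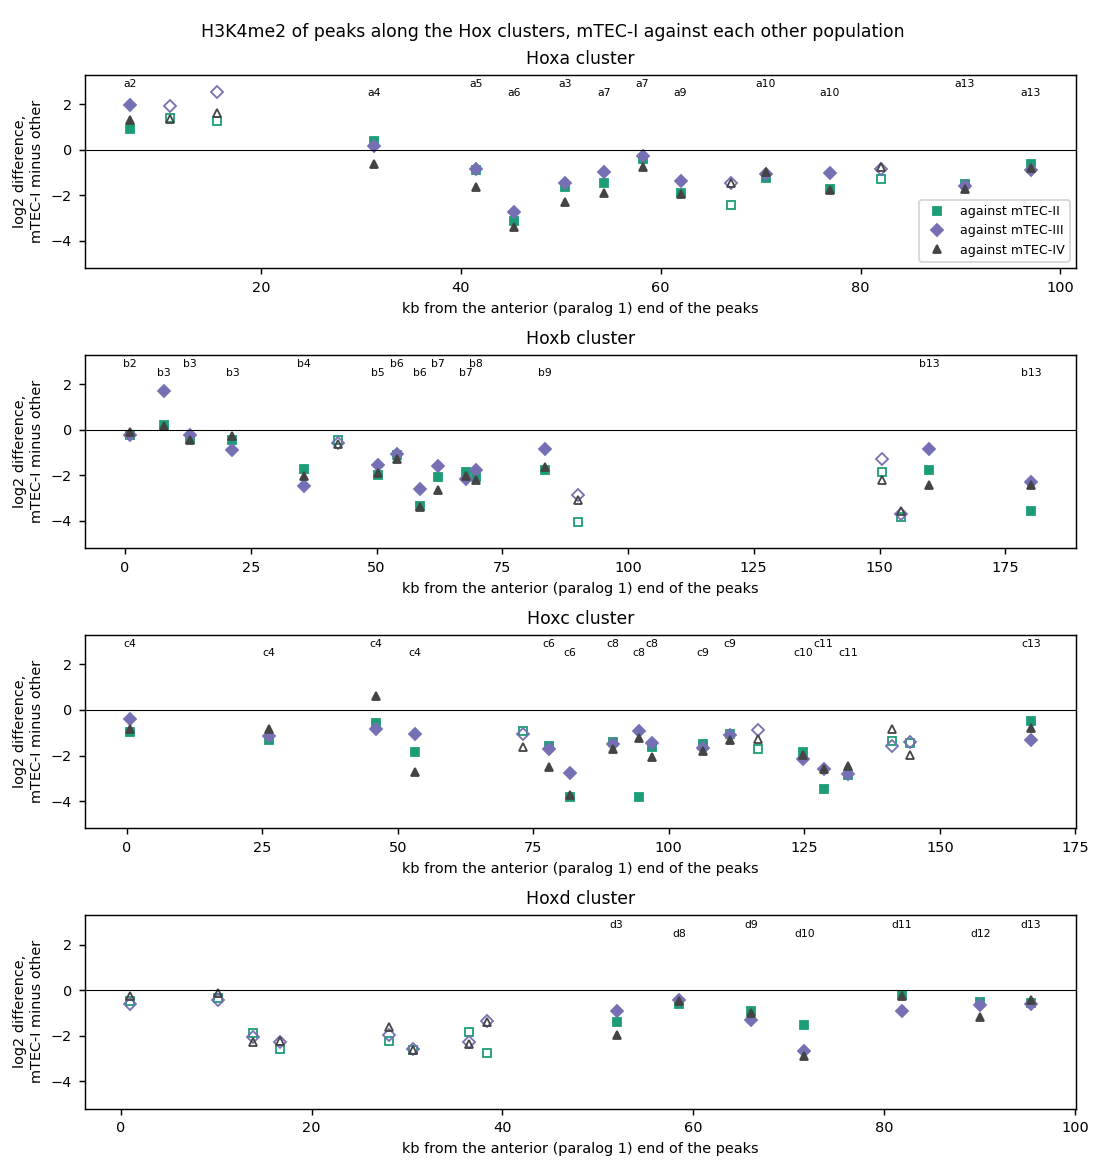
Log2 difference in H3K4me2 between mTEC-I and each other population for the peaks of each cluster, against distance in kb from the anterior end of its peaks. Filled symbols are the 48 Hox peaks, labelled by gene above each panel, and open symbols are the other 20 peaks in the same spans. In Hoxa the differences are above 0 at Hoxa2 and the neighbouring intronic peaks and below 0 from Hoxa5 on; in Hoxb they are -0.21, -0.21 and -0.084 at Hoxb2 and -1.71, -2.46 and -2.01 at Hoxb4 (against mTEC-II, mTEC-III and mTEC-IV).

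In the Hoxb cluster on chromosome 11, 7 of 9 genes differed, against 54.2% of all genes, and the others were the most anterior pair. Hoxb2 held 52.9 to 76.5 tags per 10000000 over the 8 libraries and Hoxb3 117 to 162, and for both the populations overlapped (F test adjusted p = 0.76 and 0.47, limma). The 3 peaks of Hoxb3 were not alike. The one in its last exon (chr11:96206782-96207838) held 41.0 and 32.3 in the libraries of mTEC-I, 29.2 and 33.3 in those of mTEC-II, 12.6 and 8.83 in those of mTEC-III, and 33.5 and 30.5 in those of mTEC-IV, so that mTEC-III lay below all others (adjusted p = 0.003). This Hoxb3 peak was singled out after its values were seen. Hoxb4, a regulator of blood stem cell expansion and axial patterning, had the highest mean level per kb in the cluster, 48.7. Its peak (chr11:96178905-96182080, over exon 1) held 54.9 and 35.3 in the libraries of mTEC-I, 144 and 149 in those of mTEC-II, 245 and 248 in those of mTEC-III, and 188 and 173 in those of mTEC-IV. The 4 populations did not overlap and mTEC-III was the highest, 2.46 log2 units above mTEC-I (SE 0.18, adjusted p = 1.3e-07, limma) and 0.75 above mTEC-II (SE 0.18, adjusted p = 0.0076).

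Further along, Hoxb7 held 31.0 and 52.9 in the libraries of mTEC-I, 149 and 163 in those of mTEC-II, 143 and 155 in those of mTEC-III, and 197 and 220 in those of mTEC-IV. Both mTEC-I libraries were the lowest and both mTEC-IV libraries the highest (log2 difference 2.34, SE 0.20, adjusted p = 2.4e-07, limma). Hoxb9 held 35.6 and 52.9 in the libraries of mTEC-I, 154 and 146 in those of mTEC-II, 77.0 and 81.3 in those of mTEC-III, and 142 and 131 in those of mTEC-IV. Here mTEC-III was intermediate, below both mTEC-II (by 0.92 log2 units, SE 0.19, adjusted p = 0.0035) and mTEC-IV. Hoxb13, the most posterior gene of the cluster, was also lowest in mTEC-I and next lowest in mTEC-III, with 12.4 and 5.88 in the libraries of mTEC-I, 55.2 and 52.6 in those of mTEC-II, 22.1 and 25.3 in those of mTEC-III, and 55.0 and 45.4 in those of mTEC-IV. The mTEC-I values of Hoxb13 rest on 8 tags in replicate 1 and 1 tag in replicate 2, the latter under the limit of 17.6. Hoxb5, Hoxb6 and Hoxb8 also lay below all other libraries in mTEC-I.

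In the Hoxc cluster on chromosome 15 all 7 genes and all 15 peaks differed among the populations, against 54.2% of all genes and 58.2% of all peaks. At all 7 genes, though not at every peak, both mTEC-I libraries were below the other 6, an order that 11.2% of all genes had. Hoxc11 had the smallest p of all Hox genes. Its 2 peaks, over intron 1 (chr15:102783944-102788116) and just past the gene, summed to 41.8 and 41.1 in the libraries of mTEC-I, 355 and 331 in those of mTEC-II, 276 and 294 in those of mTEC-III, and 240 and 231 in those of mTEC-IV. None of the populations overlapped. mTEC-II exceeded mTEC-I by 3.02 log2 units (SE 0.12, adjusted p = 1e-09, limma), and mTEC-IV was lower than mTEC-II by 0.54 (SE 0.12, adjusted p = 0.0033). Hoxc10, with a single peak of 6.78 kb centred at -1510 bases from its start, held 74.3 and 88.1 in the libraries of mTEC-I, 293 and 292 in those of mTEC-II, 353 and 364 in those of mTEC-III, and 307 and 327 in those of mTEC-IV. mTEC-III was highest here, 2.14 log2 units above mTEC-I (SE 0.12, adjusted p = 1.1e-08).

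Hoxc8, with 3 peaks, held 101 and 99.9 in the libraries of mTEC-I, 321 and 303 in those of mTEC-II, 258 and 296 in those of mTEC-III, and 332 and 345 in those of mTEC-IV. mTEC-IV was above all others (log2 difference from mTEC-I 1.74, SE 0.11, adjusted p = 8.8e-09, limma), and mTEC-III lay lowest of the 3 high populations. The Hoxc8 peak at chr15:102822628-102823976 went otherwise. It held 39.9 and 50.35 in the libraries of mTEC-II, 9.29 and 0 in those of mTEC-I, and 3.85 to 10.75 in mTEC-III and mTEC-IV. Hoxc9, which had the highest mean level per kb of the cluster, 41.1, held 128 and 106 in the libraries of mTEC-I, 278 and 271 in those of mTEC-II, 286 and 312 in those of mTEC-III, and 322 and 344 in those of mTEC-IV. Hoxc9 was 1.51 log2 units higher in mTEC-IV than in mTEC-I (SE 0.12, adjusted p = 7.4e-08). Hoxc4, Hoxc6 and Hoxc13 completed the cluster. Hoxc4 is a sum of 4 peaks, of which 1 lies at the start and the others 7.15, 26.97 and 52.2 kb from it in intergenic sequence, and it had the smallest difference between mTEC-I and mTEC-III of the 3, 0.88 log2 units. Its peak 7.15 kb from the start was lowest in mTEC-IV, at 17.59 and 18.52, beside 34.05 and 23.5 in mTEC-I.

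In the Hoxd cluster on chromosome 2, 4 of 7 genes differed among the populations, a share near the 54.2% of all genes. Hoxd8, the gene of highest mean level per kb in the cluster (39.7), held 91.3 and 55.8 in the libraries of mTEC-I, 110 and 107 in those of mTEC-II, 107 and 86.0 in those of mTEC-III, and 111 and 90.2 in those of mTEC-IV. There mTEC-I overlapped mTEC-III and mTEC-IV but not mTEC-II, and the F test of this gene gave an adjusted p of 0.12. Its mTEC-II libraries were 0.60 log2 units above mTEC-I. That difference was 0.95 without mTEC-I replicate 1 (F test adjusted p = 0.0006, limma) and 0.25 without replicate 2 (F test adjusted p = 0.58), where the lone mTEC-I library is assumed to vary like the others. Hoxd12 and Hoxd13 did not pass the F test either (adjusted p = 0.12 and 0.085), although Hoxd13, a gene of digit and genital development, lay lowest in both mTEC-I libraries.

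Hoxd10 showed the widest range of the cluster. It held 3.87 and 5.88 in the libraries of mTEC-I, which are 2.5 tags and 1 tag, 18.5 and 12.96 in those of mTEC-II, 30.3 and 42.4 in those of mTEC-III, and 44.0 and 41.2 in those of mTEC-IV. The mTEC-I values were the lowest and the mTEC-II values next, and mTEC-III and mTEC-IV overlapped. mTEC-I replicate 2, with its limit of 17.6, cannot place mTEC-I below the 12.96 of mTEC-II. The difference of mTEC-IV from mTEC-I was 2.91 log2 units (SE 0.41, adjusted p = 4.2e-05, limma). Hoxd9 held 59.6 and 47.0 in the libraries of mTEC-I, 99.9 and 99.6 in those of mTEC-II, 116 and 148 in those of mTEC-III, and 105 and 109 in those of mTEC-IV. Hoxd3, the anterior gene with a peak named for it in this cluster, held 19.4 and 17.6 in the libraries of mTEC-I, 43.2 and 58.9 in those of mTEC-II, 40.4 and 31.8 in those of mTEC-III, and 62.1 and 89.0 in those of mTEC-IV. Both were lowest in mTEC-I, but Hoxd9 was highest in mTEC-III (1.29 log2 units above mTEC-I, SE 0.19) and Hoxd3 in mTEC-IV (1.95, SE 0.29). Hoxd11 held 37.1 and 44.1 in the libraries of mTEC-I, 54.8 and 40.4 in those of mTEC-II, 75.1 and 77.7 in those of mTEC-III, and 50.03 and 48.4 in those of mTEC-IV. At Hoxd11 both mTEC-III libraries lay above the rest (0.90 log2 units above mTEC-I, SE 0.24, F test adjusted p = 0.024), and that call was lost without either mTEC-III library (F test adjusted p = 0.12 and 0.14).

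Grouped by paralog number, the share of Hox signal in the anterior genes (paralogs 2 and 3) was highest in mTEC-I. The Hoxa3 peak of this class lies between those of Hoxa6 and Hoxa7. Peaks on Hox transcripts that are named for other genes are not counted. The 7 anterior peaks held 46.7% and 46.5% of all Hox tags in the libraries of mTEC-I, 20.6% and 22.4% in those of mTEC-II, 14.8% and 15.8% in those of mTEC-III, and 18.6% and 18.7% in those of mTEC-IV. In mTEC-I most of it was Hoxa2, with 1093 and 969 of 1328 and 1237 tags per 10000000. The 22 peaks of central genes (paralogs 4 to 8) held 19.3 and 16.04 tags per 10000000 per kb of peak in the libraries of mTEC-I, 37.7 and 36.8 in those of mTEC-II, 35.8 and 35.7 in those of mTEC-III, and 46.7 and 48.2 in those of mTEC-IV. The 19 peaks of posterior genes (paralogs 9 to 13) held 13.6 and 14.9 per kb in mTEC-I and 37.5 to 40.9 per kb in the other 6 libraries. Central levels thus were highest in mTEC-IV without overlap, while at the posterior genes mTEC-II, mTEC-III and mTEC-IV overlapped. The central lead was widest in Hoxa, with 59.5 and 61.0 per kb in mTEC-IV and 34.8 to 38.3 in mTEC-II and mTEC-III. It was narrow in Hoxb (41.5 and 43.4, against 35.2 to 40.3) and Hoxc (40.2 and 42.9, against 31.4 to 39.9). In Hoxd, with 1 central peak, mTEC-IV overlapped mTEC-II and mTEC-III. mTEC-III was called higher than mTEC-I in 2 of 5 anterior, 11 of 13 central and 13 of 14 posterior genes, against 15.0% of all genes. For mTEC-II these counts were 2, 11 and 11, against 11.9% of all genes, and for mTEC-IV 2, 12 and 12, against 20.5%. These classes are given as descriptions, without a test of the classes against each other.

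**Figure D4:**
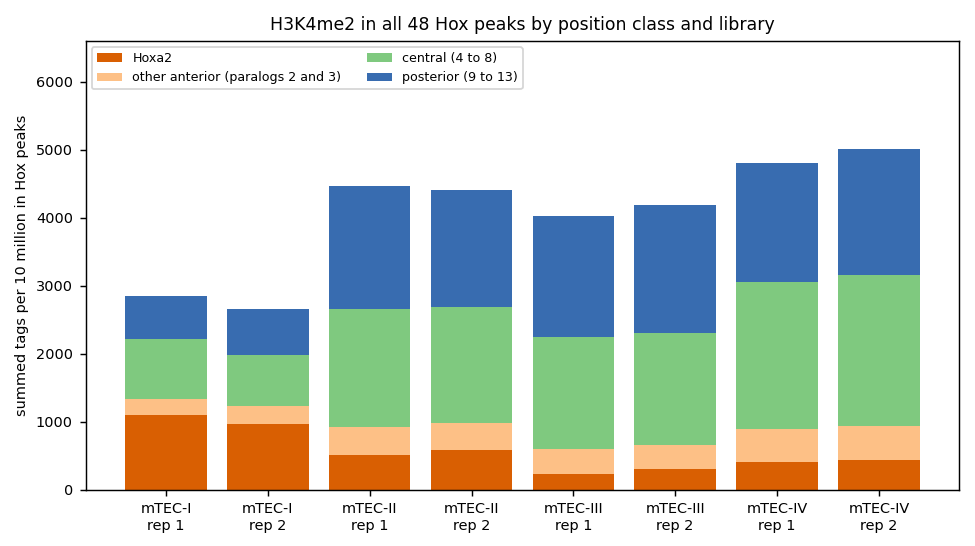
Summed H3K4me2 level in all 48 Hox peaks in each library, in tags per 10000000, split into Hoxa2, the other anterior genes (paralogs 2 and 3), central genes (4 to 8) and posterior genes (9 to 13). The mTEC-I bars are the shortest, 2841 and 2659, and Hoxa2 makes up 1093 and 969 of them.

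Paralogs, the genes of equal number in different clusters, can be read across the clusters. All 4 genes of paralog group 9 and all 4 of group 13 lay below the other 6 libraries in both mTEC-I libraries, as did all 3 genes of group 6 and all 3 of group 10. Among all genes 11.2% had this order. The median log2 difference of mTEC-I from mTEC-IV ran from -0.92 in group 13 to -2.78 in group 6 among these 4 groups. The size of the group 6 value rests on few tags, since Hoxa6, Hoxb6 and Hoxc6 held 0, 3 and 2 in mTEC-I replicate 2. Both genes of group 5 and both of group 7 also lay below the other 6 libraries in mTEC-I. In group 2 the genes went different ways, since Hoxa2 was highest in mTEC-I and Hoxb2 did not pass the test. In group 4 Hoxa4 and Hoxc4 had their highest mean level in mTEC-IV and Hoxb4 in mTEC-III.

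Among mTEC-II, mTEC-III and mTEC-IV fewer Hox genes differed. In mTEC-III 2 Hox genes were higher than in mTEC-II (Hoxb4 and Hoxc13) and 3 lower (Hoxa2, Hoxb9 and Hoxb13), against 10.7% and 11.6% of all genes; with mTEC-II as 1 sample, 1 was higher and 2 were lower. In mTEC-IV 4 were higher than in mTEC-II (Hoxa3, Hoxa4, Hoxa5 and Hoxd10) and 2 lower (Hoxa2 and Hoxc11), against 16.4% and 9.43%; with the mTEC-II libraries counted as 1 sample these became 2 and 0. In mTEC-IV 9 were higher than in mTEC-III and 1, Hoxc13, lower, against 20.8% and 12.8% of all genes. The 9 were Hoxa2, Hoxa3, Hoxa4, Hoxa5, Hoxa7, Hoxb9, Hoxb13, Hoxc6 and Hoxd3. Hoxa3, Hoxa4 and Hoxa5 were each called higher in mTEC-IV than in mTEC-II and in mTEC-III, by 0.63 to 1.03 and 0.79 to 0.83 log2 units. Hoxa6, whose peak lies between those of Hoxa5 and Hoxa3, was called in neither pair (adjusted p = 0.87 and 0.62, limma). Its differences had the same sign, 0.28 and 0.65 log2 units, but an SE of 0.88, against 0.12 to 0.17 for Hoxa3, Hoxa4 and Hoxa5. The Hoxa6 values of mTEC-I, 19.4 and 0, share in that SE, so the missing call does not set Hoxa6 apart from its neighbours. These small counts moved with single libraries: without either mTEC-I library, which lies outside these pairs but shares in the estimate of the spread, 6 Hox genes were higher in mTEC-III than in mTEC-II, and without mTEC-III replicate 1 the 9 became 5. mTEC-IV had the highest mean level in 17 of 32 Hox genes, and both its libraries lay above all others in 11, where 18.4% of all genes had this order.

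The authors' peak lists, called with the replicates of each population combined, were compared with the members by any overlap. The mTEC-I list, with 7036 peaks, covered 2 of the 48 Hox peaks, those of Hoxa2 and Hoxa4. The mTEC-II list of 23949 peaks covered 43, the mTEC-III list of 19321 covered 30 and the mTEC-IV list of 22757 covered 37. As shares of the 48 these are 4.17%, 89.6%, 62.5% and 77.1%, beside 23.4%, 80.2%, 64.5% and 75.5% of all merged peaks. The mTEC-I libraries were also the ones of lowest total, and how far depth set the length of their list was not tested. In the authors' deposited table the fold over control at Hoxa2 was 40.4 in mTEC-I, 28.2 in mTEC-II, 9.5 in mTEC-III and 46.4 in mTEC-IV. At Hoxa4 it was 10.7 in mTEC-I, 10.85 in mTEC-III and 12.2 in mTEC-IV, so mTEC-IV had the highest fold at both. The merged Hoxa2 peak met 2 list peaks in mTEC-I, 4 in mTEC-II, 1 in mTEC-III and 2 in mTEC-IV. Hoxd10 was in the mTEC-IV list only.

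Genes known to regulate Hox genes or to act with their products were read from a list of 35, of which 34 had a peak. The F test called 20 of the 34, a share near the 54.2% of all genes. Cdx1, a caudal-type activator of Hox genes, held 59.6 and 96.9 in the libraries of mTEC-I, 407 and 413 in those of mTEC-II, 230 and 281 in those of mTEC-III, and 472 and 498 in those of mTEC-IV. The populations of Cdx1 did not overlap, and mTEC-I was the lowest, as at most Hox genes (log2 difference from mTEC-IV 2.66, SE 0.17, F test adjusted p = 2.1e-08, limma). Meis2, a cofactor that binds DNA with Hox proteins, went the other way, with 3159 and 2961 in the libraries of mTEC-I, 2482 and 2554 in those of mTEC-II, 1805 and 2080 in those of mTEC-III, and 2265 and 2410 in those of mTEC-IV. Rarb, a retinoic acid receptor, was likewise highest in mTEC-I, at 317 and 367, against 188 to 246 in the other 6 libraries. The log2 differences were 0.66 (SE 0.06) between mTEC-I and mTEC-III for Meis2 and 0.85 (SE 0.11) between mTEC-I and mTEC-IV for Rarb. Against mTEC-I, 6 of the 34 regulators were higher and 4 lower in mTEC-II, beside 11.9% and 13.5% of all genes. In mTEC-III 7 were higher and 5 lower, beside 15.0% and 16.4%, and in mTEC-IV 8 were higher and 5 lower, beside 20.5% and 15.2%. Their median differences were -0.0047, -0.035 and 0.0049 log2 units, beside 1.42, 1.31 and 1.64 for the Hox genes.

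The noncoding genes inside the clusters were read together with the coding genes beside them, 25 in all, of which 19 had a peak. The F test called 14 of the 19, against 54.2% of all genes. All 8 noncoding genes with a peak were called. Of these 8, 7 were higher in mTEC-II than in mTEC-I and 1, Hoxaas2, lower, against 11.9% and 13.5% of all genes. The microRNAs of the clusters are shown with the seed, bases 2 to 8, in capitals, since the miR-196 genes are copies in different clusters that share a seed, and the RefSeq coordinates are those of GRCm38.p6.
miR-10b-5p, chr2:74726074-74726096: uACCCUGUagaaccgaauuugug
miR-196a-5p, chr11:96265187-96265208: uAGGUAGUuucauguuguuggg
miR-196b-5p, chr6:52230129-52230150: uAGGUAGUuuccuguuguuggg
Mir10b, which lies in the Hoxd cluster by Hoxd4, held 69.7 and 91.1 in the libraries of mTEC-I, 400 and 389 in those of mTEC-II, 322 and 389 in those of mTEC-III, and 307 and 352 in those of mTEC-IV. Of its 4 peaks, 3 lie in an exon or intron 1 of Hoxd3 and Hoxd4 transcripts, so the mark there cannot be given to the microRNA alone. The fourth, at the Mir10b start (chr2:74562565-74563753), held 3.10 and 5.88 in the libraries of mTEC-I, 35.7 and 34.1 in those of mTEC-II, 11.4 and 14.1 in those of mTEC-III, and 13.8 and 11.95 in those of mTEC-IV. mTEC-II lay above all others, and the mTEC-I values were the lowest but under their limits of 4.64 and 17.6. The mTEC-III and mTEC-IV values are also under 17.6, so mTEC-I replicate 2 cannot place mTEC-I below them. Over its 4 peaks together, Mir10b was lowest in mTEC-I, 2.29 log2 units below mTEC-II (SE 0.14, F test adjusted p = 7.4e-09, limma). Mir196a-1, Mir196a-2 and Mir196b were each highest in mTEC-II and lowest in mTEC-I. In mTEC-I replicate 2, Mir196a-1 held 0 and Mir196a-2 held 11.75, both under the limit of 17.6. Outside the clusters, Skap2, a gene that flanks the Hoxa cluster, held 200 and 223 in the libraries of mTEC-I, 215 and 201 in those of mTEC-II, 193 and 183 in those of mTEC-III, and 544 and 545 in those of mTEC-IV. Skap2 thus stood apart in mTEC-IV only (log2 difference from mTEC-III 1.53, SE 0.11, F test adjusted p = 3.3e-08, limma), and mTEC-I overlapped mTEC-II there.

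Gene names in the table follow the nearest start site, so the naming bears on which gene a peak counts for. In the spans of the 4 clusters lay 68 peaks, of which 20 were named for other genes. Of these, 8 lay on a Hox transcript by the table's own annotation: 2 in Hoxa3, 1 in Hoxc10 and 5 in the Hoxd1, Hoxd3 and Hoxd4 region. A peak at the Hoxd1 start, named for the antisense gene Haglr, held 77.4 and 58.8 in mTEC-I, which overlapped the range of 73.5 to 106 elsewhere. With every peak of the Hoxa span counted, the sums were 2300 and 2045 tags per 10000000 in the libraries of mTEC-I, 1787 and 1926 in those of mTEC-II, 1315 and 1392 in those of mTEC-III, and 1993 and 2112 in those of mTEC-IV. mTEC-I and mTEC-IV overlapped there and were above the others. With every peak of the Hoxd span counted, mTEC-I held 460 and 467 and the other 6 libraries 1042 to 1134, a wider gap than over the 7 peaks named for Hoxd genes, where mean sums were 249 in mTEC-I and 469 in mTEC-IV.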

How the data were processed

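H3K4me2 iChIP libraries of 4 sorted mTEC populations, 2 each, were analysed; the 8 whole-cell extract samples were not analysed here. The tools named in the submitters' processing notes are Picard 1.108 and bcl2fastq 2.15.0.4, with build mm9; no aligner or duplicate handling is stated there. The authors deposited 1 table of merged peaks with a signal per library in tags per 10000000, annotated by HOMER, per the file headers, and a peak list per population with a fold over control. Peaks were named for the nearest start site.

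Library totals in the headers gave back tag numbers: 100% of values in each library were multiples of 0.5 tags within 0.1. The smallest value above 0 was 0.5 tags in 7 libraries and 1 tag in mTEC-II replicate 2, where 48.4% of values were odd multiples of 0.5. Of 29472 peaks 2 mitochondrial ones were left out. Peaks and genes with at least 10 tags per 10000000 in 2 libraries were tested with limma 3.58.1 in R 4.3.3 (trend, log2 of value plus 1, an F test over the populations and 6 pair contrasts, p-values adjusted by Benjamini-Hochberg over all features), which was also tested on simulated data. edgeR 4.0.16 on rounded tags was an alternative.

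Values per library are given for the 4 genes of smallest p in each cluster, the gene of highest level per kb, Hoxa3, and 3 genes in each list. The lists were regulators and cofactors, noncoding and flanking genes, and markers of thymic epithelium, thymocytes, fibroblasts and endothelium. Members and lists were chosen with earlier results of these data known. Promoter and microRNA sequences are RefSeq's, GRCm38.p6.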

Additional observations from a re-analysis of the deposited data

How the results depend on the processing

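Alternatives were other scalings, a pseudocount of 5, no filter, edgeR on tags, peaks within 20 kb, each library left out and, chosen after seeing the data, the mTEC-II libraries counted as 1 sample and every peak of the cluster spans. No called count, gene or peak changed direction. The Hox median for mTEC-IV against mTEC-II was 0.11 and became -0.018 with equal totals. The median of all genes for mTEC-III against mTEC-I was -0.014 and became 0.032 without mTEC-III replicate 1 and 0.0014 with edgeR. The mean Hoxa sum was 1591 in mTEC-I and 1775 in mTEC-IV, and 2172 and 2053 with every peak of the span, which turned their order. A population left with 1 library was assumed to vary like the others. Counting mTEC-II as 1 sample gave 36 Hox peaks, 24 Hox genes higher in mTEC-III and 25 in mTEC-IV than in mTEC-I, and 8 higher in mTEC-IV than in mTEC-III. With edgeR, 28 Hox genes and 44 Hox peaks differed among populations, and 64.6% of all genes did. Leaving out 1 library gave 25 to 28 genes and 35 to 43 peaks. Against mTEC-I, those fits gave 19 to 26 Hox genes higher in mTEC-II, 20 to 26 in mTEC-III and 24 to 27 in mTEC-IV. The 2 genes lower in mTEC-II became 1 with equal totals in peaks and with mTEC-II as 1 sample, and 1 to 2 without 1 library. The pair counts among the other populations moved most. For mTEC-III against mTEC-II, edgeR called 6 higher and 10 lower, a pseudocount of 5 gave 4 higher, mTEC-II as 1 sample gave 1 higher, and leaving out 1 library gave 0 to 6 higher and 1 to 7 lower. For mTEC-IV against mTEC-II, edgeR called 9 higher, mTEC-II as 1 sample gave 2 higher and 0 lower, and leaving out 1 library gave 1 to 9 higher and 1 to 2 lower. For mTEC-IV against mTEC-III, leaving out 1 library gave 5 to 13 higher and 0 to 4 lower, and the 1 lower became 3 with RLE size factors, 4 with edgeR, 4 with equal totals and 2 with a pseudocount of 5. In these 3 pairs the lowest counts came without a library of the pair itself (mTEC-II replicate 1 or 2, mTEC-III replicate 1 or 2, or mTEC-IV replicate 1 or 2) and counts above the full fit's without mTEC-I replicate 1 or 2. The counts of 0 above came from limma. The cause of these shifts was not tested. The regulators called ran from 16 to 27 without 1 library. Requiring the list peak to cover at least 50% of the merged peak left 1 Hox peak, Hoxa2, in the mTEC-I list. Equal totals gave Hox sums of 4630 in mTEC-II and 4668 in mTEC-IV. Counting every peak of the spans gave mean sums of 3727, 5909, 5347 and 6281 in mTEC-I to mTEC-IV, by construction larger. Of the single genes and peaks, 485 values kept direction and side of the threshold, and Hoxd8 and Hoxd11 were the exceptions given above. The replicate numbers did not pair the libraries (correlations of deviations from -0.0125 to 0.0159), and a fit with the replicate block gave 27 Hox genes and 40 Hox peaks. Depth limits the mTEC-I values most.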
